A study of Mus musculus with 19 samples.

Results

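Galectins are sugar-binding proteins, and 6 genes of this group were followed in retinal microglia after laser injury: *Lgals1*, *Lgals3*, *Lgals4*, *Lgals8*, *Lgals9* and *Lgals3bp*, which encodes a secreted partner of galectins rather than a galectin. They were taken by gene symbol from the table of normalized counts, which holds 27299 genes, and all 6 were found. Bulk RNA-seq compared 6 samples from day 3 after laser treatment (CNV d3, where CNV is choroidal neovascularization) with 6 samples from unlasered control mice. All mice were 8 weeks old, the lasered retinas carried 6 burns each, and the labels set the groups apart by laser treatment. All 6 controls but only CNV d3 replicate 4 of the lasered samples were listed in 2 parts, so that laser treatment and whatever the parts stand for can hardly be told apart. The labels name the strain C57BL/6J, while the methods describe *Cx3cr1* GFP/+ mice, in which a copy of the microglial receptor gene *Cx3cr1* is replaced by a fluorescent protein, and the labels and the methods give this for both groups alike. Cells were sorted for CD45, CD11b and CX3CR1 and against Ly6C and Ly6G, with low CD45 according to the methods. The sources used here do not say how many mice or eyes made up a sample. All p-values take the sample as the unit, and the spread between these samples may in part be technical.

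Galectins bind sugar chains that end in galactose on glycoproteins and glycolipids. They are made in the cytosol, leave the cell without a signal peptide, and can crosslink receptors outside the cell or mark damaged vesicles inside it. Galectin from *Lgals1* pairs up through a single sugar-binding domain, that from *Lgals3* forms larger assemblies through a flexible tail, and those from *Lgals4*, *Lgals8* and *Lgals9* carry a pair of unlike sugar-binding domains on a single chain. In the nervous system *Lgals3* is best known from microglia that respond to injury.

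The samples held between 10963178 and 22335233 reads on genes in control and between 23532260 and 29523018 in CNV d3, and control replicate 6 was the shallowest. A single read was worth between 0.739 and 1.99 normalized counts. Of 10 microglia genes, 8 fell in CNV d3 and 0 rose, among them *P2ry12* (log2FC = -1.65) and *Tmem119* (log2FC = -1.06), while *Olfml3* and *Fcrls* did not pass the test, and their summed level stayed between 554025 and 831815 normalized counts in CNV d3 against between 1105310 and 1264150 in control. Of 14 monocyte genes, 6 rose and 0 fell, and their sum was between 1116 and 2357 in control and between 2932 and 6600 in CNV d3. The monocyte markers *Ly6c2* and *Chil3* had 0 reads in all controls. Sums over 6 of 8 neutrophil genes stayed at or under 26.4, and photoreceptor sums ranged from 786 to 7079 in control and from 626 to 12832 in CNV d3. Of 8 genes of Mueller glia and astrocytes, 3 rose (*Vim*, log2FC = 3.79, *Dkk3*, log2FC = 3.81, and *Aldh1l1*, log2FC = 5.19, or 2.65 with edgeR) and 1 fell (*Slc1a3*, log2FC = -0.67). With edgeR, *Dkk3* (edgeR padj = 0.0598) and *Aldh1l1* (edgeR padj = 0.192) did not pass. Sums of the 8 genes were 6846 to 9909 in control and 8053 to 9100 in CNV d3. Without control replicates 1 and 3, 2 of them rose and 0 fell. Of 7 measured endothelial genes 1 fell, and 0 of the measured photoreceptor, neutrophil, fibroblast, pigment epithelium and T and B cell genes passed the test. In bulk samples, fewer cells of a type and less RNA per cell cannot be told apart. Sums over 15 interferon genes set control replicate 1 (41762) and control replicate 3 (51495) apart from the other controls (14918 to 16044), and the members are therefore also given without both, a choice made after the data were seen.

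Of the 6 members, 4 rose in CNV d3 (*Lgals1*, *Lgals3*, *Lgals3bp* and *Lgals9*), 0 fell, and *Lgals4* and *Lgals8* did not pass the test (limma on log2(normalized counts + 1), adjusted p under 0.05 over all genes). Among all 27299 genes, 8.29% rose and 4.57% fell. In the same 4 members every CNV d3 sample lay above every control sample, as in 4.64% of all genes, while 2.83% of all genes had every CNV d3 sample below every control sample. Differentially expressed genes (DEG), which in addition need an absolute log2FC above 1.5, were 2 of the members, *Lgals1* and *Lgals3*, where 3.91% of all genes were increased DEG and 1.07% decreased DEG. The median log2FC of the members was 1.10, beside 0.15 for all genes. Without control replicates 1 and 3, the counts were again 4 members that rose and 2 DEG, at 7.71% of genes that rose.

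**Figure D1:**
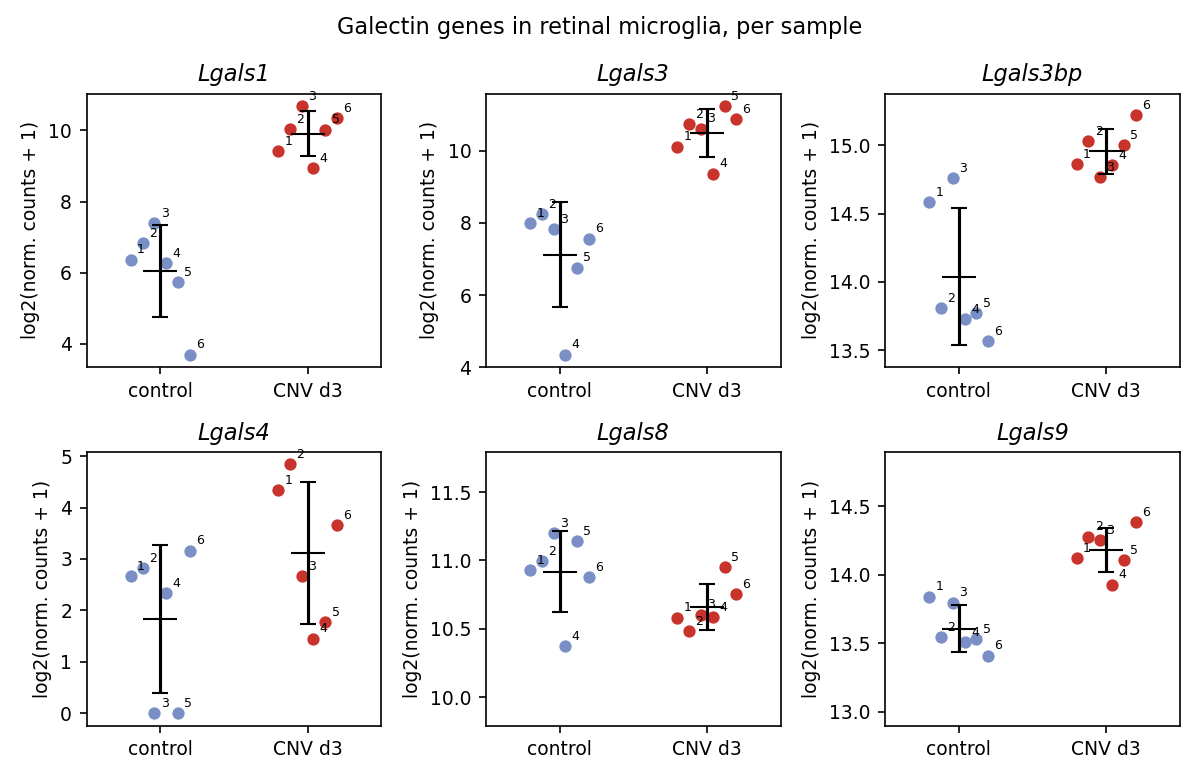
Level of each of the 6 members as log2(normalized counts + 1) in every sample, where points are samples numbered by replicate (6 control in blue, 6 CNV d3 in red), bars show the mean ± SD of a group, and each panel has its own axis range. The points of the groups are separate for *Lgals1*, *Lgals3*, *Lgals3bp* and *Lgals9* and overlap for *Lgals4* and *Lgals8*.

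*Lgals1*, whose product crosslinks glycoproteins on immune cells, had the highest log2FC among the members. The gene lies on chr15:78926725-78930465 on the forward strand (GRCm38, Gencode M21). Control samples held between 11.9 and 168 normalized counts with a median of 78.9, and CNV d3 samples between 489 and 1650.0 with a median of 1040.4. Every lasered sample was thus above the highest control, and the lowest control was replicate 6, with 6 reads in the shallowest sample. Means were 83.7 ± 53.1 in control and 1034 ± 418 in CNV d3 (SD, n = 6 each), a 12.4-fold difference (log2FC = 3.86 ± 0.51 SE, 95% confidence interval 2.78 to 4.94, padj = 0.000189).

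*Lgals3* encodes the galectin that recognises, among others, the receptors MERTK and TREM2 and gathers on ruptured lysosomes. It lies on chr14:47367751-47386160 on the forward strand. Its values ran from 19.3 to 301 normalized counts in control, with a median of 207, and from 661 to 2434 in CNV d3, with a median of 1641. Control replicate 4 stood below the others, with 19 reads, and CNV d3 replicate 4 was the lowest of its group, yet the groups did not overlap. The mean rose from 183 ± 103 to 1562 ± 616 (SD, n = 6 each), which is 8.55-fold (log2FC = 3.38 ± 0.55 SE, 95% confidence interval 2.20 to 4.55, padj = 0.000919).

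Among the lasered samples *Lgals1* and *Lgals3* differed in rank only for CNV d3 replicates 3 and 5, the highest for *Lgals1* and for *Lgals3*, respectively, and replicate 4 was the lowest for both. Over the 12 samples, after the group means were subtracted, their Pearson r was 0.19, a description with no test in which control replicates 4 and 6, each very low for only 1 of the genes, take part. The increase of *Lgals3* was 0.48 smaller than that of *Lgals1* on the log2 scale, which did not exceed the spread of the samples (exact permutation test over 924 labellings, two-sided, p = 0.561, n = 6 each). Without control replicate 6 it changed sign (0.08, exact permutation adjusted p = 0.942).

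Monocytes are also known to express *Lgals1* and *Lgals3*, and the members were therefore set against the mean log2 level of the 14 monocyte genes within the 6 lasered samples. The score was between 4.80 in replicate 4 and 6.80 in replicate 6. *Lgals1* followed it with r = 0.95 (exact permutation p = 0.00556, adjusted over 6 members 0.0333) and rho = 0.89 (exact permutation p = 0.0333, adjusted 0.2), and r was 0.93 without replicates 4 and 6, which lay farthest from the median score. With *Ccr2*, *Ly6c2* and *S100a4* left out of the list, r was 0.92 and the adjusted exact permutation p 0.05, no longer under the threshold. *Lgals3* gave r = 0.88 (exact permutation p = 0.0292, adjusted 0.075) and rho = 0.71 (exact permutation p = 0.136, adjusted 0.272), and r was 0.57 without the same samples. *Lgals9* gave r = 0.84 (exact permutation p = 0.0375, adjusted 0.075) and rho = 0.71, and r was 0.29 without them. The r of *Lgals3* and of *Lgals9* thus fell without these samples, but an r over so few samples is imprecise. For *Lgals3bp*, *Lgals4* and *Lgals8*, r was 0.38, 0.27 and 0.40. Among the monocyte genes themselves, *Thbs1* (log2FC = 1.05), *Ms4a4c* (log2FC = 1.73) and *Plac8* (log2FC = 3.93) rose, and *Itga4* (log2FC = 1.41), *Ifitm6* (log2FC = 2.87, or 1.17 with edgeR) and *F13a1* (log2FC = 3.46, or 1.53 with edgeR) did not pass the test. The part of monocytes, or of the Mueller glia and astrocyte genes that rose, in the change of *Lgals1* and *Lgals3* was not tested.

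**Figure D2:**
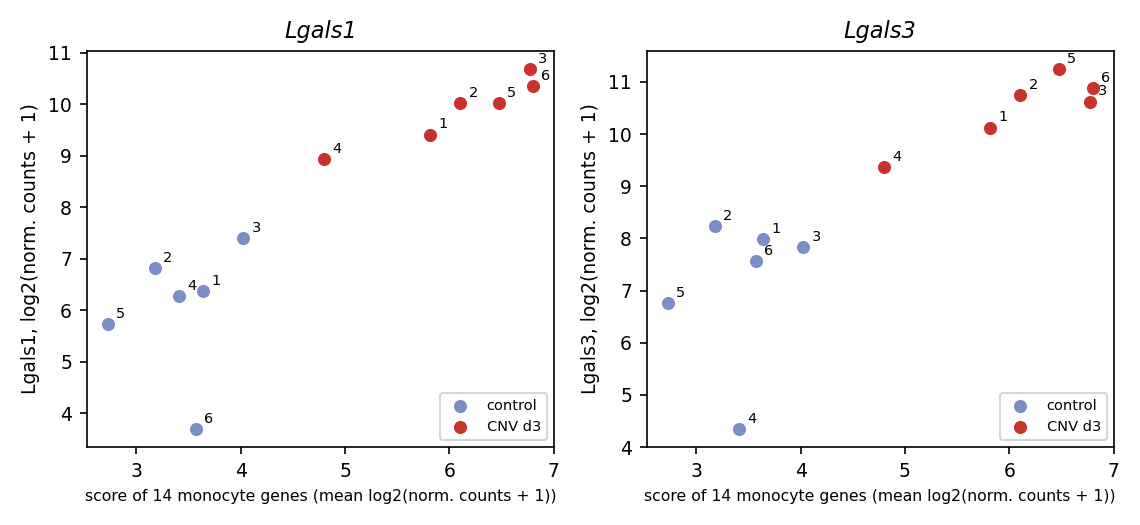
Levels of *Lgals1* (left) and *Lgals3* (right), as log2(normalized counts + 1), against the mean log2 level of 14 monocyte genes in the 12 samples, numbered by replicate. CNV d3 replicate 4 has the lowest score of its group and the lowest level of both genes, and every CNV d3 sample has a higher score than every control sample.

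*Lgals9* encodes a galectin that binds the checkpoint receptor TIM3 (*Havcr2*) and is known to be induced by interferons. It lies on the reverse strand at chr11:78962974-78984946. Control samples ranged from 10873 to 14669 normalized counts around a median of 11889, and CNV d3 samples from 15579 to 21389 around a median of 18685. The highest controls were replicates 1 and 3, and all lasered samples were above them. The mean went from 12533 ± 1537 to 18639 ± 2044 (SD, n = 6 each), a 1.49-fold rise (log2FC = 0.57 ± 0.09 SE, 95% confidence interval 0.37 to 0.77, padj = 0.000934). Without control replicates 1 and 3, the log2FC was 0.68 (limma padj = 0.00138), and leaving out the highest controls favours a larger log2FC.

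The promoter sequences of the members are shown where they hold the binding motif of interferon-activated factors, since interferon genes moved with *Lgals3bp* and *Lgals9* across the controls. RefSeq windows on GRCm38.p6 (250 bases before and 50 after the RefSeq start of a gene) were found for 5 of the 6 members and not for *Lgals1*. These starts differ from those of the Gencode spans given here, and the windows of *Lgals3* and *Lgals8* lie wholly inside the spans. In the windows, the interferon-stimulated response element was searched on both strands as GAAA followed, after a gap of any 2 bases, by a further GAAA. It was in 3.44% of 32851 windows and at least 2 times in 0.225% of them, and *Lgals9* was the only member with it. That window held 2 matches, 55 bases before the RefSeq start and 16 bases after it, both on the strand opposite to the gene. The sequences read 5′ to 3′ on the strand of the gene, at chr11:78984947-78985174 and chr11:78984890-78984919, and capitals mark the matches.
Lgals9 upstream: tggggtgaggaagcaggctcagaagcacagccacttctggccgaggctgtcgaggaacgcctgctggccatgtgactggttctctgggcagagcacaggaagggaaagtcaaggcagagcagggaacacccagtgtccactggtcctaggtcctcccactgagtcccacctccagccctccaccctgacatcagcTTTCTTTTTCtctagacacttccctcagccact
Lgals9 first exon site: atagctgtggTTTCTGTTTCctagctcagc

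The window of *Lgals3bp* held no match to these letters. The GC box GGGCGG, which was in 35.7% of all windows, was found in those of *Lgals3* and *Lgals4*. The pair in *Lgals3*, in capitals, faces both ways around the RefSeq start at chr14:47373847-47373876 on the forward strand.
Lgals3 GC box site: gctgccCCGCCCtgggaGGGCGGgcccggg
The gamma-activated site TTCNNNGAA (8.30% of all windows), the AP-1 site TGAGTCA (5.2%), the PU.1 site GAGGAAGT (3.20%) and the E-box CACGTG (7.15%) were in no member's window. A match is a description of letters and does not show that a factor binds there.

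*Lgals3bp* encodes a large secreted glycoprotein that binds galectins and matrix proteins. It lies on chr11:118392751-118402092 on the reverse strand and had the highest normalized counts of the group. Control samples ranged from 12158 to 27725 with a median of 14169, and CNV d3 samples from 27869 to 38133.5 with a median of 31267. Control replicates 1 (24571) and 3 (27725) stood above the other 4 controls, and replicate 3 lay just under the lowest lasered sample, CNV d3 replicate 3. The mean rose 1.80-fold, from 17729 ± 6639 to 31927 ± 3685 (SD, n = 6 each; log2FC = 0.92 ± 0.18 SE, 95% confidence interval 0.53 to 1.31, padj = 0.00372). Without those controls the log2FC was 1.23 (limma padj = 0.000129). As they were the highest controls, leaving them out favours a larger log2FC.

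Of the 15 interferon genes, 10 rose in CNV d3, 0 fell and 5 did not pass the test, with a median log2FC of 1.25. *Ifit2* (log2FC = 1.44), *Oasl2* (log2FC = 1.42) and *Irf7*, the transcription factor that amplifies the interferon response (log2FC = 1.82), rose, and *Bst2* (log2FC = 0.63, padj = 0.115), *Rtp4* (log2FC = 0.79, padj = 0.237) and *Usp18* (log2FC = 1.16, padj = 0.0545) did not pass. When control replicates 1 and 3 were left out, all 15 passed. Those controls were chosen by the high sum of these same genes, so leaving them out favours this outcome. The lowest summed level among lasered samples was 30965 in replicate 1, which is under both of these controls. Like the other lasered samples, replicate 1 was above every control for *Lgals3bp* and *Lgals9*. Within the 6 lasered samples the mean log2 level of the interferon genes gave r = 0.41 with *Lgals3bp* (exact permutation p = 0.425, adjusted over 6 members 0.638) and r = 0.56 with *Lgals9* (exact permutation p = 0.233, adjusted 0.638). *Lgals1* had the highest r of the 6 members with the interferon genes, 0.70 (exact permutation p = 0.104), which did not pass. Its rho was 0.89 (exact permutation p = 0.0333, adjusted 0.2), the same as with the monocyte score. Without CNV d3 replicates 1 and 6 its r was 0.93. Whether *Lgals1* followed the monocyte genes more closely than the interferon genes was not tested. The part of interferon signalling in the rise of *Lgals1*, *Lgals3bp* or *Lgals9* was not tested either.

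**Figure D3:**
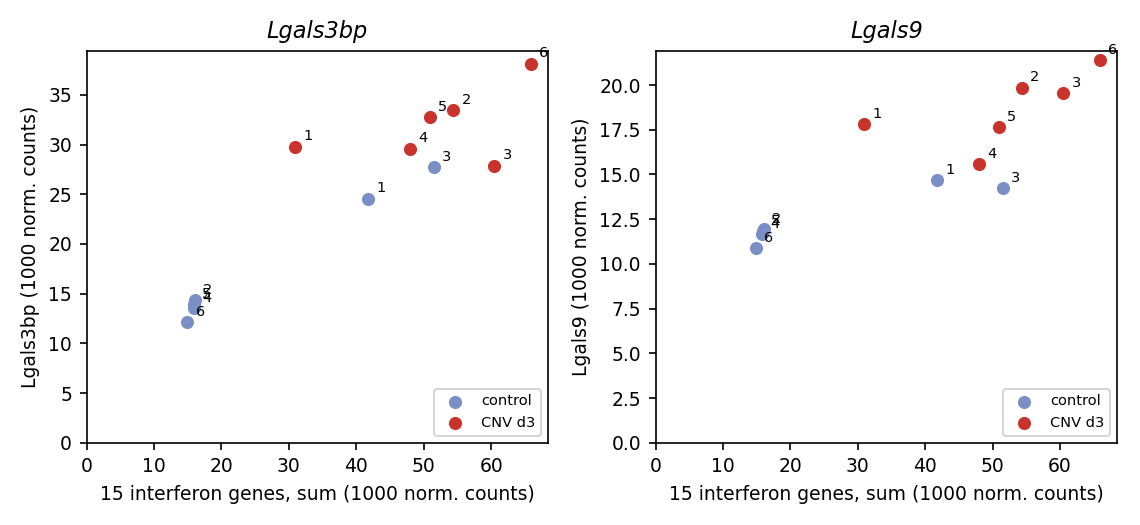
*Lgals3bp* (left) and *Lgals9* (right) against the sum of 15 interferon genes, both axes in normalized counts scaled as labelled, with a numbered point for each control and CNV d3 sample. Control replicates 1 and 3 lie to the right of the other controls and are the highest controls for both members, but below all CNV d3 samples.

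*Lgals8* encodes a galectin that detects sugars exposed on broken endosomes and recruits autophagy receptors to them. It lies on chr13:12439415-12464944 on the reverse strand. Control samples held between 1323 and 2349.9 normalized counts with a median of 1996, and CNV d3 samples between 1431 and 1978 with a median of 1547. The groups overlapped, and control replicate 4 was the lowest of all 12 samples. Means were 1967 ± 363 and 1627 ± 197 (SD, n = 6 each), a difference that did not pass the test (log2FC = -0.26 ± 0.14 SE, 95% confidence interval -0.55 to 0.04, padj = 0.271). This call turned on control replicate 4, without which the log2FC was -0.37 (limma padj = 0.0346). Exons of *Lgals8* share 155 bases, 4.20% of their length, with exons of *Heatr1* on the other strand, and counting did not use strand, so reads there cannot be assigned.

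*Lgals4*, a galectin mainly of gut epithelium, lies on chr7:28833854-28841708 on the forward strand and was near the limit of detection. Its normalized counts ranged from 0 to 7.94 in control with a median of 4.71, and from 1.73 to 27.6 in CNV d3 with a median of 8.50. Control replicates 3 and 5 had 0 reads, where 3 reads taken as the detection floor are worth 3.38 and 3.01 normalized counts, and the groups overlapped. The difference did not pass the test (log2FC = 1.29 ± 0.88 SE, 95% confidence interval -0.58 to 3.16, padj = 0.404). Of 6 measured intestinal epithelium genes, *Epcam* rose, from 0 reads in all controls, and the other 5 did not pass, with sums of 0 to 5.06 in control and 16.4 to 217 in CNV d3. *Epcam* no longer passed without control replicates 1 and 3.

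*Lgals2* had 2.37 ± 4.08 normalized counts in control and 2.39 ± 2.47 in CNV d3 (SD, n = 6 each, limma padj = 0.746). *Lgalsl*, a galectin-like gene, had 88.9 ± 74.4 and 189 ± 96.2, a difference that did not pass the test (log2FC = 1.99, or 1.09 with edgeR, 95% confidence interval of limma -0.18 to 4.16, limma padj = 0.243). *Lgals6*, *Lgals7*, *Lgals12* and *Grifin* were not found by symbol among the 27299 genes.

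**Figure D4:**
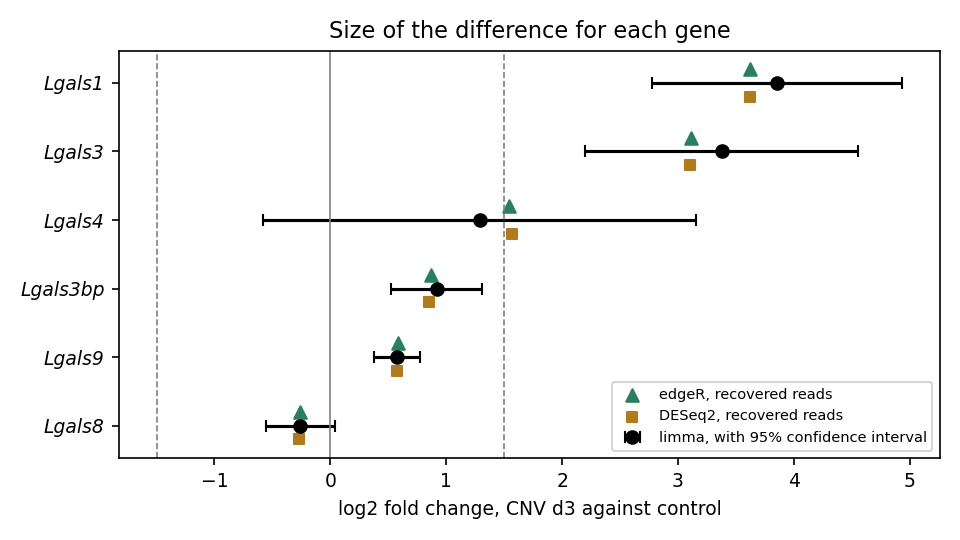
Log2FC of CNV d3 against control for the 6 members, with circles and 95% confidence intervals from limma, triangles from edgeR and squares from DESeq2 on recovered reads, a solid line at 0 and dashed lines at a log2FC of 1.5 in either direction. The intervals of *Lgals4* and *Lgals8* include 0, and those of *Lgals1* and *Lgals3* lie above 1.5.

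The sizes of the changes were compared directly in 5 pairs, with p adjusted over the 5. The increases of *Lgals1* and *Lgals3* exceeded that of *Lgals9* by 3.28 and 2.80 on the log2 scale (two-sided exact permutation p = 0.00216 for each, the smallest that 924 labellings allow, adjusted 0.00361). *Lgals8* changed less than *Lgals9*, by -0.83 (exact permutation p = 0.00216, adjusted 0.00361), and in control its level was on average 2.69 log2 units under that of *Lgals9*, against 3.52 in CNV d3. *Lgals3bp* and *Lgals9* differed by 0.34 (exact permutation p = 0.0455, adjusted 0.0568), which did not pass after adjustment. Of 12 omissions of a single sample, 2 changed this call, and the highest exact permutation adjusted p was 0.119. It passed without control replicate 1 (0.41, exact permutation adjusted p = 0.0379) or control replicate 3 (0.45, exact permutation adjusted p = 0.0162). In these controls *Lgals3bp* was highest relative to *Lgals9*, so leaving either out favours a larger difference.

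Levels were compared between genes per length, as TPM, which corrects the recovered reads for exon length and for the total of each sample. In control, *Lgals3bp* (858 ± 300.1 TPM) and *Lgals9* (812 ± 92.8 TPM) made up most of the summed TPM of the members, 47.4% and 46.8% (SD, n = 6 each). Their difference was not tested, and *Lgals3bp* lay above *Lgals9* only in control replicates 1 and 3. By mean, *Lgals3bp* and *Lgals9* ranked 115 and 127 among 27238 genes with a length. *Lgals8* followed with 73.8 ± 12.8 TPM, then *Lgals3* (13.7 ± 7.96 TPM) and *Lgals1* (12.7 ± 7.78 TPM), which lay within their spread and were not tested either, and *Lgals4* with 0.238 ± 0.200 TPM.

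In CNV d3 *Lgals3bp* lay above *Lgals9* in every sample, and the order of mean levels changed below this pair. *Lgals3bp* reached 1601 ± 187 TPM (rank 67) and *Lgals9* 1244 ± 132 TPM (rank 84), and *Lgals1* (163 ± 67.1 TPM) and *Lgals3* (119.9 ± 47.7 TPM) had both passed *Lgals8* (63.0 ± 8.23 TPM) in the mean. In CNV d3 replicate 4 *Lgals3* stayed below *Lgals8*, with 1.87% against 2.19% of the summed TPM. The share of *Lgals1* in the summed TPM went from 0.692% to 5.04% and that of *Lgals3* from 0.764% to 3.69%, while *Lgals8* went from 4.28% to 1.99% and *Lgals9* from 46.8% to 39.04%. The summed TPM of the group was 1770.3 ± 399 in control and 3192 ± 358 in CNV d3 (SD, n = 6 each).

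**Figure D5:**
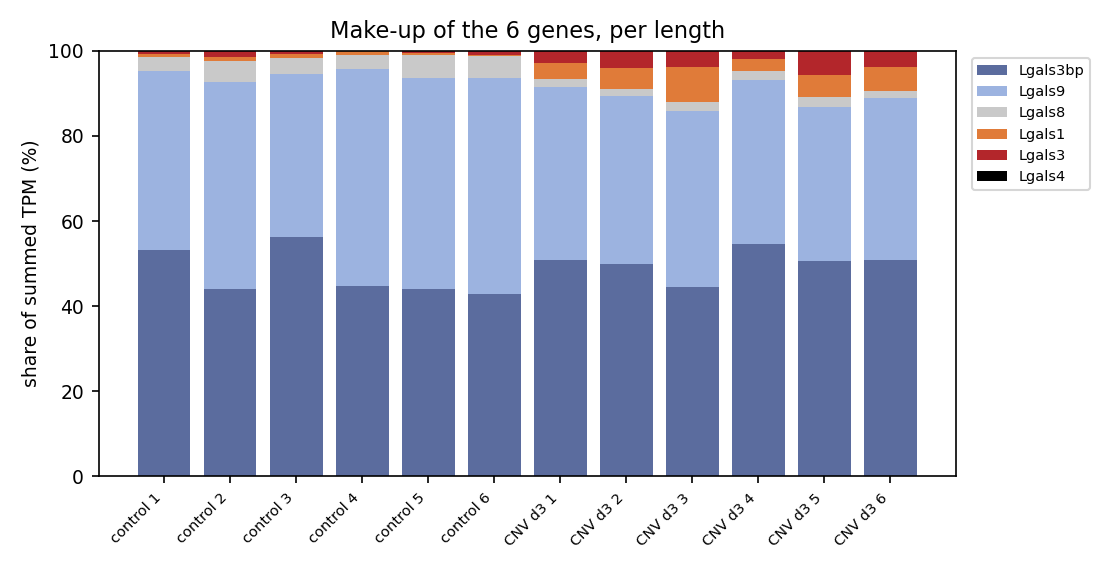
Share of each member in the summed TPM of the 6 members, in percent, for each sample as a stacked bar from 0. *Lgals3bp* and *Lgals9* fill most of every bar, and the mean share of *Lgals1* is 0.692% in control and 5.04% in CNV d3.

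Which sugars a galectin finds depends on enzymes that build glycans. Of 18 such genes, 1 rose (*Man2a2*, log2FC = 0.87), 4 fell and 13 did not pass the test, with a median log2FC of -0.18. *St3gal6*, which caps galactose with sialic acid, fell from 12932 to 7088 normalized counts (log2FC = -0.90, limma padj = 0.000531), *Gcnt1*, which branches O-glycans, from 8526 to 6256 (log2FC = -0.45) and *Mgat1*, which starts complex N-glycans, from 5163 to 3939 (log2FC = -0.39). *St6gal1*, another sialic acid transferase, fell as well (log2FC = -0.48). *Mgat4a* (log2FC = -0.27), *B4galt1* (log2FC = 0.16) and *Mgat2* (log2FC = -0.14) did not pass, nor did *Mgat5* (log2FC = -0.27, limma padj = 0.357), which makes the branched N-glycans that galectin from *Lgals3* binds. *Man2a2*, *St6gal1* and *Mgat5* were chosen after their values were seen.

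Among 22 genes of proteins that galectins bind, 8 rose, 4 fell and 10 did not pass, with a median log2FC of 0.46. Without control replicates 1 and 3, the numbers were 6 and 2. The lysosomal membrane protein gene *Lamp1* (log2FC = 0.22) and the integrin genes *Itga6* (log2FC = 0.50) and *Itgb1* (log2FC = 0.46) rose, and *Lamp2* (log2FC = 0.00), *P4hb* (log2FC = 0.22, padj = 0.0825) and *Ptprc* (log2FC = 0.17, padj = 0.321) did not pass. Further genes that passed were chosen after their values were seen. Those that fell were *Mertk* (log2FC = -0.50), a receptor for engulfing dying cells, *Trem2* (log2FC = -0.76), a lipid receptor of microglia, *Tlr4* (log2FC = -0.59), the receptor for bacterial lipopolysaccharide, and *Slc3a2* (log2FC = -0.28), which encodes CD98. Those that rose included the integrin gene *Itgam* (log2FC = 0.72), the hyaluronan receptor gene *Cd44* (log2FC = 0.64) and the VEGF receptor gene *Kdr* (log2FC = 0.98). Of the genes named here that rose or fell, *Lamp1* (edgeR padj = 0.0638) and *Slc3a2* (edgeR padj = 0.0758) did not pass with edgeR. *Havcr2*, the receptor for the product of *Lgals9*, went from 10374 to 9072 normalized counts, which did not pass (log2FC = -0.19, padj = 0.207), and was likewise chosen after its value was seen.

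Of 9 measured genes in the response to damaged vesicles, 2 rose and 7 did not pass. *Pdcd6ip*, which encodes the repair adaptor ALIX recruited by galectin from *Lgals3*, rose from 3259 to 4962 normalized counts (log2FC = 0.62) and *Chmp4b*, a component of the membrane-sealing ESCRT machinery, from 172 to 492 (log2FC = 1.54). *Sqstm1* (log2FC = -0.29), *Tax1bp1* (log2FC = 0.02) and *Tfe3* (log2FC = -0.22) did not pass. Among 15 genes of disease-associated microglia, 11 rose, including *Ctsb* (log2FC = 0.51) and *Apoe* (log2FC = 1.77), 2 fell, including *Cd9* (log2FC = -0.43), and *Clec7a* and *Lpl* did not pass. Without control replicates 1 and 3, 9 rose and 1 fell.

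The genes most like each member were ranked by Pearson r over the 12 samples after the group means had been subtracted, among 9221 genes with at least 50 normalized counts in at least 11 samples (9222 for *Lgals4*). These values are descriptions without a test, and the samples share libraries and depth across all genes. For *Lgals3bp* the leading genes were the interferon-induced *Rtp4* and *Bst2* (r = 0.93 each). Control replicates 1 and 3 were the highest controls for all of these, and *Rtp4* and *Bst2* belong to the list that set those controls apart. Within the lasered samples alone, the interferon genes gave r = 0.41 with *Lgals3bp*. Control replicate 6 (6 reads) lay far below the other controls for *Lgals1*, and control replicate 4 (19 reads) for *Lgals3*. *Lgals4* had only 0 to 33 reads per sample. How far single samples or low counts carry the values of the other members was not tested. For *Lgals9* the leading genes were the MHC class I gene *H2-T22* (r = 0.94), *Tspo* (r = 0.91), a mitochondrial protein gene, and the immunoproteasome gene *Psmb9* (r = 0.91), and r between *Lgals9* and *Lgals3bp* was 0.80. For *Lgals1* they were *Mrpl30* (r = 0.96), of the mitochondrial ribosome, the cytokinesis gene *Racgap1* (r = 0.94) and the histone chaperone gene *Asf1b* (r = 0.93). *Lgals3* was led by *Zmym1* (r = 0.95) and *Kptn* (r = 0.92), *Lgals8* by *Tirap* (r = 0.95), *Ccser2* (r = 0.92) and *Cped1* (r = 0.91), and *Lgals4* by *Arl8a* (r = 0.89), *Eef2* (r = 0.85) and *Ahcyl2* (r = 0.82).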

How the data were processed

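Per the labels and the methods, the authors mapped single reads with STAR 2.7.2b to GRCm38.p6, counted reads per gene with featureCounts 1.6.4, and divided them by size factors from DESeq2 1.22.2; the deposited signal is this normalized count. Samples listed in 2 parts were counted as 1. The authors' fold changes and p-values in the same table were not used. As the values are no counts, limma 3.58.1 (R 4.3.3, trend, pseudocount 1, no filter, Benjamini-Hochberg over 27299 genes) on log2(value + 1) was the main test. For low genes its fold changes depend on the pseudocount and can lie above or below those of edgeR. All values were whole multiples of the value of 1 read (tolerance 1e-04), and edgeR 4.0.16 and DESeq2 1.42.0 were run on the recovered reads as alternatives. Exon lengths came from Gencode M21. The scripts were tested on simulated data. Reads carry no molecular identifiers, so floors cover counting error only. Members and lists were chosen with earlier results of these data known. Named were the members, the other galectin genes, per list the 3 genes of highest mean that passed and the 3 that did not, and the 3 genes most like each member, except some genes that are not reported here. For cell type lists beyond microglia and monocytes counts or sums were used, and the Mueller glia and astrocyte genes and *Epcam* were named after their values were seen.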

Additional observations from a re-analysis of the deposited data

How the results depend on the processing

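On the recovered reads with edgeR, DESeq2 or limma voom, and with TMM scaling, pseudocounts of 0.5 and 10, a filter of 10 normalized counts in 6 samples, and thinning to the shallowest sample, the same 4 members passed and 2 were DEG (*Lgals4* was removed by the filter). The median log2FC of all genes moved between -0.01 and 0.23. With a pseudocount of 10 the increased DEG among all genes were 600 instead of 1068, and the decreased DEG were 572 with DESeq2 and 489 with voom instead of 293. Same-numbered samples correlated with r between -0.02 and 0.05, and 1 of 6 numbers correlated best with its own. These values were taken over 12753 genes, and shared handling of same-numbered samples was not tested. With the replicate number as a block the log2FC of *Lgals1* was 3.86 (limma padj = 0.00108) and that of *Lgals3bp* 0.92 (padj = 0.0137), and no member changed its call, while DEG among all genes went to 921 and 215. The block lowered the SE of *Lgals3* from 0.55 to 0.36 (limma padj = 0.000622), while that of *Lgals3bp* went from 0.18 to 0.19. Leaving out each sample gave 3.39 to 4.13 for *Lgals1*, at least 2.82 for *Lgals3*, -0.37 to -0.20 for *Lgals8*, 0.29 to 0.45 for *Lgals3bp* minus *Lgals9* and -1.08 to 0.08 for *Lgals3* minus *Lgals1*, which changed sign without control replicate 6 (0.078). With *Ccr2*, *Ly6c2* and *S100a4* left out of the monocyte list, r of *Lgals1* was 0.92 and its adjusted exact permutation p 0.05, no longer under the threshold; the cause was not tested. *Lgals4* had 0 to 33 reads per sample, and thinning moved its log2FC from 1.29 to 0.95.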
